A study of Mus musculus with 2 samples.

Results

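The enzymes described here are 10 mouse genes whose products build the sugar chains of mucins. They were taken by name from a list, C1galt1, C1galt1c1, Galnt3, Galnt4, Galnt12, Gcnt3, B3gnt3, B3gnt6, B3gnt7 and B4galnt2, and all 10 were found among the 43346 annotated genes of the gene tables. The tables come from polyA RNA of tissue labelled large intestine from C57BL/6J mice, an inbred laboratory strain, aged 8 weeks, without any treatment or allele named. There was 1 group with 2 libraries, replicate 2 and replicate 1. Each is labelled as a pool of male and female littermates, and both are filed under a single donor record. The spread between them may be partly technical, but the sex-linked counts given below are at odds with a shared pool. How far the spread is technical or between animals is not known. With 1 group there is no comparison between conditions, and every ratio below sets 1 library against 1 and has no replicate check.

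Mucins are large proteins whose serine- and threonine-rich stretches carry dense O-linked sugar chains. In the Golgi a GalNAc-transferase attaches the opening sugar, GalNAc, which is then built into a core, lengthened with further sugars and capped. In the gut, goblet cells secrete the gel-forming mucin MUC2, absorptive cells carry membrane mucins such as MUC13, and the chains hold water, bind bacteria and slow the breakdown of the mucus by proteases. Core 1 and core 3 are alternative early structures, and their relative use is known to differ along the gut.

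The libraries held 55655330 expected counts on annotated genes in replicate 2 and 48724618 in replicate 1. The tissue label was checked against marker genes. Of 10 markers of large intestine epithelium, 7 lay below 1 TPM in both libraries, with Scnn1g, Hoxa13 and Hoxd13 at 0 counts and Car1 at 0.27 TPM in replicate 2, against 0.23 TPM in replicate 1. Their sum, 167 TPM in replicate 2 against 166 TPM in replicate 1, came almost wholly from Car4 and Slc26a3. By contrast all 8 markers of small intestine enterocytes and all 6 Paneth cell markers were detected. TPM, a transcript abundance scaled to a fixed library total, corrects for transcript length. The libraries also differed in the levels of ileal and small intestine enterocyte markers. The 5 ileal enterocyte markers summed to 6353 TPM in replicate 2, against 1094 TPM in replicate 1, and the 8 small intestine enterocyte markers to 3654 and 9797 TPM in that order. In bulk tissue fewer cells of a type and less RNA per cell cannot be told apart. The label of pooled sexes is at odds with the counts of the sex-linked genes, since the sum over 4 Y-linked genes was 3 expected counts for replicate 2 and 2741 for replicate 1, and Xist had 12563 for replicate 2 and 17 for replicate 1. The tissue and the sex are therefore given only as labelled.

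All 10 enzymes reached 1 TPM in each library, here called detected, which holds for 56.2% of protein-coding genes and 29.9% of all annotated genes. Their levels were spread over a wide range, with B4galnt2, B3gnt3 and B3gnt7, all of late steps, far above the other 7. They together took 78.4% of the summed TPM of the 10 genes in replicate 2 and 85.1% in replicate 1. The sum of all 10 was 384 TPM in replicate 2, against 512 TPM in replicate 1, with a mean of 448 ± 90.9 TPM (SD, n = 2). The other 7 genes summed to 83.0 TPM in replicate 2, against 76.4 TPM in replicate 1. Muc2, a main substrate of these enzymes, was at 2000 TPM in replicate 2, against 1791 TPM in replicate 1. The summed enzyme level was thus 0.192 of that of Muc2 in replicate 2 and 0.286 in replicate 1. The 10 genes lie on 10 different chromosomes.

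**Figure D1:**
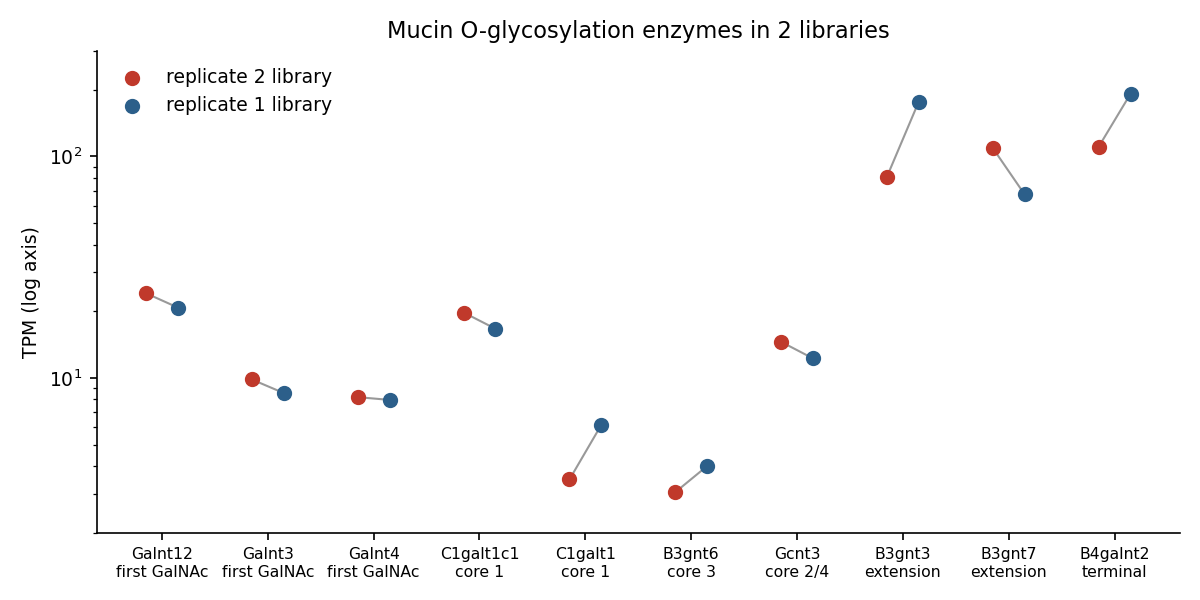
TPM of each of the 10 enzymes (log axis) in the replicate 2 library (red, left of each pair) and the replicate 1 library (blue, right), with the genes ordered by step from the GalNAc-transferases to the terminal enzyme B4galnt2. B3gnt3, B3gnt7 and B4galnt2 lie between 67.3 and 192 TPM, and the other 7 genes between 3.05 and 24.1 TPM.

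Ordered by mean TPM, the genes ran B4galnt2, B3gnt3, B3gnt7, Galnt12, C1galt1c1, Gcnt3, Galnt3, Galnt4, C1galt1 and B3gnt6. The largest step between neighbours was that from B3gnt7 to Galnt12, a ratio of means of 3.93. Among the leading genes the ranges of B4galnt2 and B3gnt3 overlapped, but B4galnt2 was the higher in each library. Those of B3gnt3 and B3gnt7 overlapped as well, and here the order was not fixed. B3gnt7 stood above B3gnt3 in replicate 2 and below it in replicate 1. C1galt1 and B3gnt6 at the low end also overlapped, with C1galt1 the higher in each library. The other neighbours did not overlap, with only 2 libraries to set the range. Among 13512 genes whose mean TPM was 1 or more, 94.1% had a lower mean than B4galnt2, 93.1% a lower mean than B3gnt3 and 89.9% a lower mean than B3gnt7, against 22.7% for B3gnt6.

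Chain building is started by the Galnt family, the polypeptide GalNAc-transferases, of which Galnt3, Galnt4 and Galnt12 belong to the 10 enzymes. Galnt12 (ENSMUSG00000039774.8, chromosome 4, 47091909 to 47123070, mm10, plus strand), a transferase known for expression in the digestive tract, was at 24.1 TPM in replicate 2, against 20.8 TPM in replicate 1, a mean of 22.5 ± 2.35 TPM (SD, n = 2). Galnt4 (ENSMUSG00000090035.3, chromosome 10, 99108159 to 99113247, plus strand), which prefers peptides that already carry GalNAc, was at 8.19 TPM in replicate 2, against 7.96 TPM in replicate 1. Its mean was 8.075 ± 0.163 TPM (SD, n = 2), in TPM the closest pair of values among the 10. As shares of expected counts Galnt3 was closer, at a ratio of replicate 2 over replicate 1 of 0.946, beside 1.18 for Galnt4. The Galnt4 transcript shares 420 nt of exon with Poc1b, a centriole protein gene on the same strand, whose expected counts were likewise whole. Poc1b was at 10.1 TPM in replicate 2, against 11.4 TPM in replicate 1.

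Galnt3 (ENSMUSG00000026994.5, chromosome 2, 66082766 to 66124994, minus strand), a transferase also known for glycosylating the phosphate hormone FGF23, was at 9.84 TPM in replicate 2, against 8.55 TPM in replicate 1, a mean of 9.195 ± 0.912 TPM (SD, n = 2). It was the single enzyme whose direction between the libraries depended on the unit. Its expected counts were 827 in replicate 2 and 765 in replicate 1, which as shares of all counts gives a ratio of replicate 2 over replicate 1 of 0.946 (95% exact interval 0.857 to 1.05, counting error only). The TPM followed the transcripts to which the reads were assigned. Galnt3-201, the protein-coding transcript of 11 exons and 3885 nt, took 650 counts (78.6% of the gene) in replicate 2 and 685 counts (89.6%) in replicate 1. Galnt3-204, annotated as a processed transcript of 754 nt, took 107 counts (12.9%) in replicate 2 and 29.5 counts (3.85%) in replicate 1.

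Because TPM divides by length, the short transcripts weighed more in it. Galnt3-201 held 31.2% of the TPM of the gene in replicate 2 and 49.3% in replicate 1. Galnt3-203, a processed transcript of 573 nt, held 33.7% in replicate 2 and 34.6% in replicate 1, and Galnt3-204 held 34.7% in replicate 2 and 14.4% in replicate 1. The transcript with the highest share of TPM was therefore Galnt3-204 in replicate 2 and Galnt3-201 in replicate 1, whereas by counts it was Galnt3-201 in both. Counted over the protein-coding transcript alone, an alternative chosen after seeing the data, Galnt3 was at 3.07 TPM in replicate 2, against 4.22 TPM in replicate 1, a log2 ratio of -0.36 where that of the gene was 0.18.

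**Figure D2:**
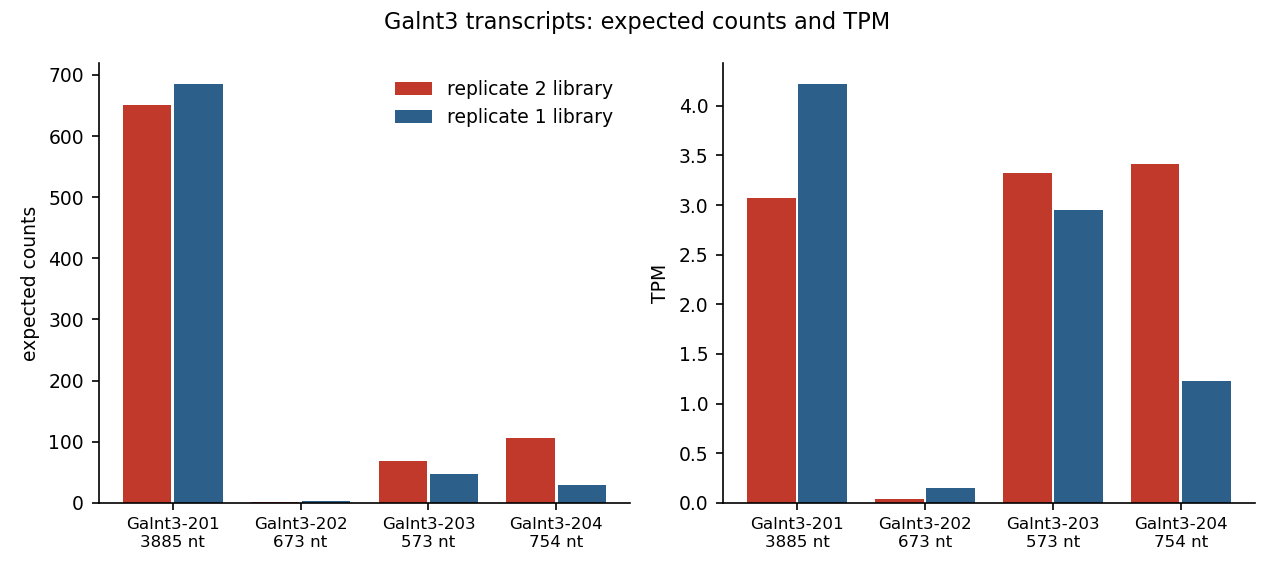
Expected counts (left) and TPM (right) of the 4 annotated Galnt3 transcripts, labelled with their lengths, in the replicate 2 library (red, left bar) and the replicate 1 library (blue, right bar). Galnt3-201 holds 650 and 685 counts, far more than the others, while in TPM the short Galnt3-203 and Galnt3-204 stand above it in replicate 2, at 3.32 and 3.41 TPM beside 3.07 TPM.

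For the other enzymes 1 transcript carried the gene. In 7 of the 10 a single transcript was annotated in the tables, and in Galnt12 and B3gnt7 the leading protein-coding transcript held 98.7% or more of the TPM in both libraries. Galnt12-201 held all of it in replicate 2 and 99.4% in replicate 1. B3gnt7-201 held 98.7% in replicate 2 and 99.03% in replicate 1. The leading transcript was thus the same in both libraries for 9 of the 10 genes. Gene counts of all 10 were whole numbers in both libraries, within 0.005.

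Among the 19 Galnt genes, the 3 described here were not the highest. They took 26.2% of the summed TPM of the family in replicate 2 and 19.5% in replicate 1. Galnt6 was at 39.6 TPM in replicate 2, against 52.9 TPM in replicate 1, Galnt1 at 27.0 TPM in replicate 2, against 32.9 TPM in replicate 1, and Galnt10 at 24.2 TPM in replicate 2, against 31.8 TPM in replicate 1, all transferases of the same opening step. Galnt12 ranked next after these by its mean. Of the 16 Galnt genes outside the 10 enzymes, 8 were detected and 7 stayed under 1 TPM in each library.

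**Figure D3:**
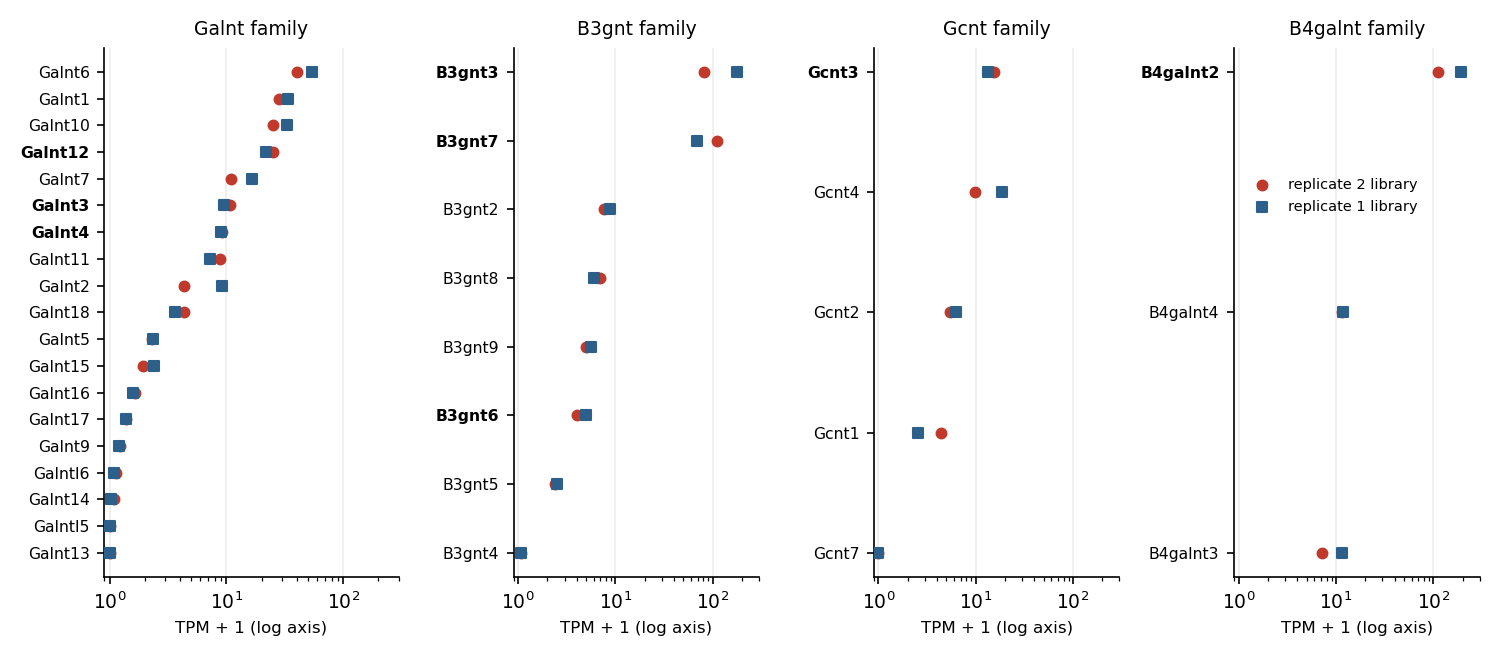
TPM + 1 (log axis) of every gene of the Galnt, B3gnt, Gcnt and B4galnt families in the replicate 2 library (red circles) and the replicate 1 library (blue squares), ordered by mean, with the enzymes described here in bold. B3gnt3, B3gnt7 and B4galnt2 stand apart at the top of their families, whereas Galnt3, Galnt4 and Galnt12 lie within theirs.

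Core 1 is made by C1galt1, which adds galactose to GalNAc, and this enzyme needs C1galt1c1, a chaperone of the endoplasmic reticulum also called Cosmc. The chaperone gene was the higher of the pair. C1galt1c1 (ENSMUSG00000048970.9, chromosome X, 38630785 to 38635087, minus strand) was at 19.7 TPM in replicate 2, against 16.7 TPM in replicate 1, a mean of 18.2 ± 2.16 TPM (SD, n = 2). C1galt1 (ENSMUSG00000042460.4, chromosome 6, 7844842 to 7875687, plus strand) was at 3.48 TPM from 450 expected counts in replicate 2 and 6.13 TPM from 608 in replicate 1, a mean of 4.805 ± 1.87 TPM (SD, n = 2). In TPM the chaperone exceeded its client 5.67-fold in replicate 2 and 2.72-fold in replicate 1. C1galt1c1 is X-linked, and the libraries differ in Xist and Y-linked counts as given above, whose part in its ratio was not tested.

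B3gnt6 (ENSMUSG00000074004.2, chromosome 7, 98192417 to 98199481, minus strand), the core 3 synthase, known as the enzyme of the core that is abundant on colonic mucin, was the lowest of the 10. It was at 3.05 TPM from 380 expected counts in replicate 2 and 4.00 TPM from 382 in replicate 1, a mean of 3.525 ± 0.672 TPM (SD, n = 2). As a share of counts the ratio was 0.871, and its 95% exact interval of 0.754 to 1.01 included 1. Set against C1galt1, which competes for the same GalNAc, its range overlapped, with C1galt1 over B3gnt6 at 1.14 in replicate 2 and 1.53 in replicate 1.

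Gcnt3 (ENSMUSG00000032226.5, chromosome 9, 70031496 to 70038088, minus strand) encodes the mucin-type branching enzyme, which adds GlcNAc to core 1 and core 3 to make core 2 and core 4. It was at 14.6 TPM in replicate 2, against 12.3 TPM in replicate 1, a mean of 13.4 ± 1.63 TPM (SD, n = 2). It took 46.6% of the TPM of the 5 Gcnt genes in replicate 2 and 33.2% in replicate 1. Gcnt4, another branching enzyme of core 2, was at 8.80 TPM in replicate 2, against 17.8 TPM in replicate 1, so that Gcnt3 was the higher of both in replicate 2 and the lower in replicate 1. Gcnt1, the core 2 enzyme best known from leukocytes, was at 3.43 TPM in replicate 2, against 1.56 TPM in replicate 1.

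Chains are lengthened by the B3gnt family, which adds GlcNAc, and 2 of its members dominated here. B3gnt3 (ENSMUSG00000031803.7, chromosome 8, 71690756 to 71701789, minus strand), the core 1 extension enzyme, was at 81.2 TPM from 8856 expected counts in replicate 2 and 177 TPM from 14803 in replicate 1, a mean of 129 ± 67.7 TPM (SD, n = 2). B3gnt7 (ENSMUSG00000079445.3, chromosome 1, 86302832 to 86307305, plus strand), which extends sulfated chains and is known from keratan sulfate synthesis, was at 109 TPM from 14814 expected counts in replicate 2 and 67.3 TPM from 7035 in replicate 1, a mean of 88.1 ± 29.4 TPM (SD, n = 2). The libraries thus differed in opposite directions, B3gnt3 being lower and B3gnt7 higher in replicate 2. B3gnt3 over B3gnt7 came to 0.745 in replicate 2 and 2.63 in replicate 1. With B3gnt6 they took 91.5% of the TPM of the 8 B3gnt genes in replicate 2 and 92.9% in replicate 1. The highest of the others was B3gnt2, a general chain-extending enzyme, at 6.62 TPM in replicate 2, against 7.77 TPM in replicate 1.

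B4galnt2 (ENSMUSG00000013418.8, chromosome 11, 95865943 to 95914891, minus strand) caps chains with GalNAc to form the Sda antigen, which in the mouse gut is detected with a plant lectin. It was at 111 TPM from 9647 expected counts in replicate 2 and 192 TPM from 12808 in replicate 1, a mean of 151 ± 57.3 TPM (SD, n = 2). It was the highest of the 10 genes in each library, although in replicate 2 it exceeded B3gnt7 by a ratio of 1.02 only, against 2.85 in replicate 1. It held 86.9% of the TPM of the 3 B4galnt genes in replicate 2 and 89.9% in replicate 1. B4galnt3 was at 6.18 TPM in replicate 2, against 10.6 TPM in replicate 1, and B4galnt4 at 10.6 TPM in replicate 2, against 10.9 TPM in replicate 1. Both add GalNAc to GlcNAc. The antisense genes that overlap exons of B4galnt2 and B3gnt7, Gm11534 and Gm28626, held at most 3 counts in a library.

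The start regions of these 3 abundant genes are shown because their levels set the total and differ in both directions between the libraries. Each runs 5′ to 3′ on the strand of its gene, from 250 bases before to 50 bases after the start, from RefSeq on GRCm38.p6, the build called mm10 in the tables. Windows were at hand for 5 of the 10 genes. The regions are chr11:95914822-95915121 on the minus strand for B4galnt2, chr8:71701751-71702050 on the minus strand for B3gnt3 and chr1:86302971-86303270 on the plus strand for B3gnt7. Capitals mark matches, on either strand, to the letters of any of 5 motifs.
B4galnt2: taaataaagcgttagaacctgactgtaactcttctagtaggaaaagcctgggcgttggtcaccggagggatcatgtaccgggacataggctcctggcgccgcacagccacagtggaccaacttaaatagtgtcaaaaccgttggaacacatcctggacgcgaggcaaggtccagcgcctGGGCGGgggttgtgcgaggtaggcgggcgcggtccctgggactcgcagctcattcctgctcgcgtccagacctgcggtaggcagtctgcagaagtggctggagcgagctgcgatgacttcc
B3gnt3: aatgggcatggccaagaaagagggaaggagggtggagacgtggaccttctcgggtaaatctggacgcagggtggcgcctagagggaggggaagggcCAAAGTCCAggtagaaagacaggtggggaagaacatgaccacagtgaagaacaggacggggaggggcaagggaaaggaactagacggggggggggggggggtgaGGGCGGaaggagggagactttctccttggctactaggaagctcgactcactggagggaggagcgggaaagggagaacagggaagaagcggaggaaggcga
B3gnt7: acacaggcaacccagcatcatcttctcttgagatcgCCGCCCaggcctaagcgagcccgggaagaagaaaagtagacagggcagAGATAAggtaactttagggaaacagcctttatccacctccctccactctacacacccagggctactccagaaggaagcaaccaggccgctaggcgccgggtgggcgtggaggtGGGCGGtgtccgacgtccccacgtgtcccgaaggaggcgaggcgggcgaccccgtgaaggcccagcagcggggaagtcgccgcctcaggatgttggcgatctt
All of them hold the GC box GGGCGG of the SP and KLF factors, as 35.7% of 32851 windows of the same length do. B3gnt3 also holds CAAAGTCCA, a sequence typical of sites of the enterocyte factor HNF4, whose match begins 154 bases before the start and which 0.475% of all windows hold. B3gnt7 holds AGATAA, the core of GATA factor sites, 166 bases before the start, as 11.2% of windows do. Neither the CDX letters TTTATG, in 11.9% of windows, nor the TATA box letters TATAAA, in 13.6%, was found in these 3. No match overlapped another. The motifs were chosen with results of these data known, and a match is a string of letters and not a bound site. GC content was 59.0% for B4galnt2, 60.3% for B3gnt3 and 62.0% for B3gnt7, with a median of 52.7% over all windows.

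The difference between the libraries was computed for each gene as log2 of (TPM + 1) in replicate 2 over replicate 1, which understates it for low genes. Of the 10 enzymes, 6 were higher in replicate 2 and 4 lower. Over all 13512 genes whose mean TPM was 1 or more, 4504 were higher in replicate 2 and 8982 lower. The median log2 ratio of the enzymes was 0.11, beside -0.145 over these 13512 genes. TMM scaling sets library totals by the bulk of genes. With it these medians were 0.06 and 0.01. The median over all genes thus moved up, so the TPM ratios are to be read against a shift of the whole library. That of the enzymes moved down because Galnt3, near the middle of the 10, went from 0.18 to -0.09. The other enzymes all moved up with TMM, such as Galnt12 from 0.20 to 0.38. Only B3gnt3 was at least 2-fold apart, 1 of 10 genes. Over all genes 5.64% were, 4.46% lower and 1.18% higher in replicate 2, so the count for the enzymes is near this background. Its log2 ratio of -1.11 was close to the limit and lay at -0.95 with TMM, where none of the 10 was 2-fold apart and 3.8% of all genes were. On shares of expected counts it was -0.93, again with none of the 10 past 2-fold and 3.72% of all genes. At a limit of 1.5-fold in TPM + 1 the count was 4 of 10, B3gnt3, B4galnt2, C1galt1 and B3gnt7, beside 17.5% of all genes.

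Below that limit came the other large ratios. B4galnt2 had a log2 ratio of -0.79 and C1galt1 one of -0.67, both lower in replicate 2, and B3gnt7 one of 0.69, higher in replicate 2. B3gnt6 was at -0.30. Gcnt3 and C1galt1c1 were each at 0.23, Galnt12 at 0.20 and Galnt4 at 0.04. Directions were the same for all but Galnt3 in the 9 other settings computed. For the abundant genes counting error is small. As shares of expected counts, the ratio of replicate 2 over replicate 1 was 0.524 (95% exact interval 0.510 to 0.538) for B3gnt3, 0.659 (0.642 to 0.677) for B4galnt2 and 1.84 (1.79 to 1.90) for B3gnt7. For C1galt1 it was 0.648 (0.572 to 0.733) and for Galnt4 1.18 (1.10 to 1.25), while Galnt12, C1galt1c1 and Gcnt3 lay between 1.33 and 1.36. The interval included 1 for B3gnt6 and Galnt3 and not for the other 8, and over all 13512 genes it left out 1 for 72.2%, so 8 of 10 is near the background. These intervals say nothing of the spread between animals.

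**Figure D4:**
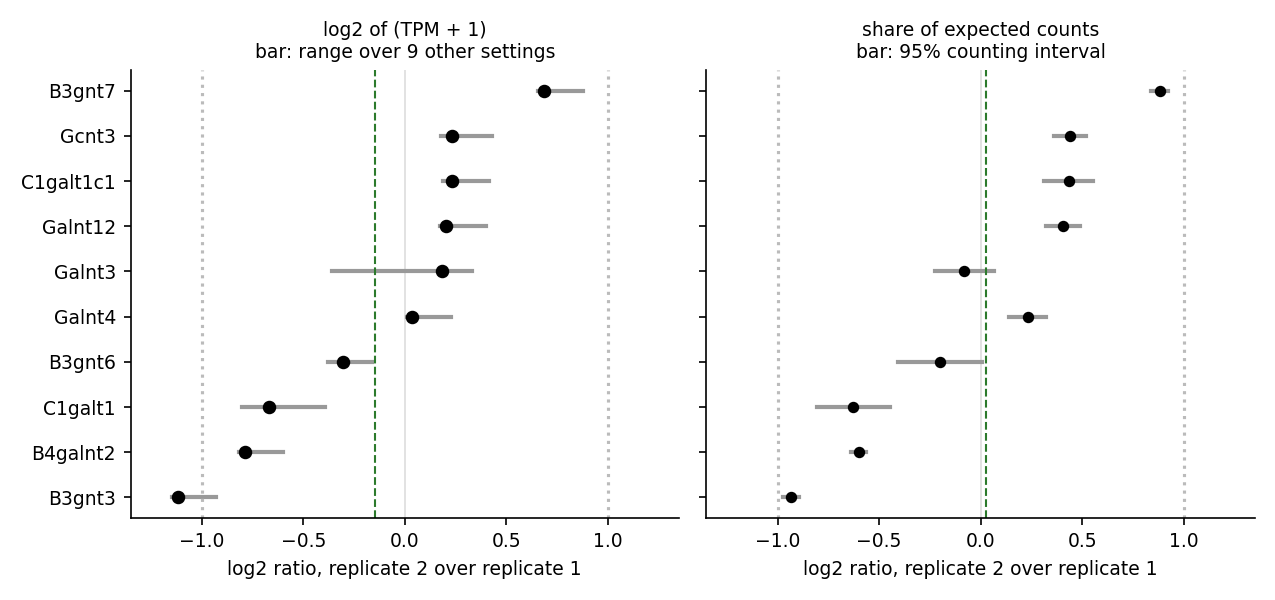
Log2 ratio of replicate 2 over replicate 1 for each enzyme, on TPM + 1 with the range over 9 other settings as a bar (left) and on shares of expected counts with the 95% counting interval as a bar (right). The dashed line is the median of all genes (-0.145 left, 0.03 right) and dotted lines mark 2-fold; B3gnt3 passes the lower line on the left only, and B3gnt7 is the highest in both.

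Markers of the cells that could carry these enzymes also differed between the libraries. All 11 goblet cell markers outside the mucins were detected, and 10 were higher in replicate 2, with a median log2 ratio of 0.34. Ern2 was lower, at -0.65 in TPM and -0.51 with TMM. With TMM the median was 0.41, and Fcgbp changed sign, from 0.34 to -0.07. The summed level of the 11 markers was 40272 TPM in replicate 2, against 30635 TPM in replicate 1. Tff3, the trefoil peptide of goblet cells, was at 14265 TPM in replicate 2, against 9057 TPM in replicate 1, but their fate factor Spdef was at 44.9 and 43.5 TPM. Retnlb, a goblet cell antimicrobial protein, was at 13.0 TPM in replicate 2, against 1.97 TPM in replicate 1. All 8 small intestine enterocyte markers were at least 2-fold lower in replicate 2 (7 with TMM), among them the lactase gene Lct at 9.94 TPM in replicate 2, against 152 TPM in replicate 1. All 5 ileal markers were higher in replicate 2, 3 of them at least 2-fold, with the ileal bile acid binding protein gene Fabp6 at 5279 TPM in replicate 2, against 477 TPM in replicate 1.

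All 6 Paneth markers were higher in replicate 2 as well, with sums of 10997 TPM in replicate 2, against 7531 TPM in replicate 1. The 7 pan-epithelial genes had a median log2 ratio of -0.16 in TPM and 0.01 with TMM. Among them the microvillus gene Vil1 was at 381 TPM in replicate 2, against 794 TPM in replicate 1, and Epcam at 399 and 561 TPM. The part of these cell types in the ratios of B3gnt3, B4galnt2, C1galt1 and B3gnt7 was not tested. Set within each library against Epcam, B3gnt3 stood at 20.3% of its TPM in replicate 2, against 31.5% in replicate 1, B4galnt2 at 27.8% and 34.2%, and B3gnt7 at 27.3% and 12.0%. Against Muc2, B3gnt3 stood at 4.06% in replicate 2 and 9.88% in replicate 1, B4galnt2 at 5.54% and 10.7%, and B3gnt7 at 5.44% and 3.76%. Against each of these genes 9 of the 10 enzymes kept the direction they had in TPM. Such a division shifts all 10 ratios by a common factor, so it is no separate check of the directions. Galnt4 turned against Muc2, at 0.409% in replicate 2 and 0.445% in replicate 1, and B3gnt6 turned against Epcam, at 0.765% in replicate 2 and 0.713% in replicate 1.

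The mucin genes are the substrates. Of 14 mucin names, 12 were in the tables and 5 were detected in both libraries. Muc2 had a log2 ratio of 0.16, the membrane mucin gene Muc13 one of -0.23 at 1330 TPM in replicate 2, against 1560 TPM in replicate 1, and the membrane mucin gene Muc3 one of 0.79 at 683 TPM in replicate 2, against 396 TPM in replicate 1. No mucin gene whose mean TPM was 1 or more was 2-fold apart, of 6. Their median log2 ratio was -0.04 in TPM and 0.19 with TMM. The gastric mucin genes Muc5ac and Muc6 were at 0.12 and 0.11 TPM in replicate 2, against 0.02 and 0.04 TPM in replicate 1.

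The remaining genes of the pathway were taken from lists of 85 genes in all, of which 61 were detected in both libraries. Of the 62 whose mean TPM was 1 or more, 2 were at least 2-fold higher and 5 at least 2-fold lower in replicate 2. That is 11.3%, beside 5.64% of all genes, with no test of the difference. With TMM 4 were higher and 3 lower, again 11.3%, beside 3.8% of all genes. Gcnt1 was among the 4, at a log2 ratio of 1.33 with TMM and 0.79 in TPM.

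Of these, the gene furthest apart was Fut2, the fucosyltransferase of H antigen and of fucosylated gut mucin. It was at 46.8 TPM from 7163 expected counts in replicate 2 and 7.73 TPM from 907 in replicate 1, a log2 ratio of 2.45. Of the 7 genes of the fucose list, 3 were detected in both libraries. The others were Fut4, at 8.63 TPM in replicate 2, against 10.7 TPM in replicate 1, and Fut1, at 1.39 and 1.05 TPM. Abo, which makes the A and B antigens, had 0 counts in both.

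Sialyltransferases, which cap chains with sialic acid, were led by St3gal4 at 177 TPM in replicate 2, against 107 TPM in replicate 1. St6galnac2, which adds sialic acid to the GalNAc at the root of the chain, was at 16.5 TPM in replicate 2, against 36.5 TPM in replicate 1. St3gal6 was at 5.77 TPM in replicate 2, against 14.9 TPM in replicate 1. These last were the 2 sialyltransferases at least 2-fold apart, of 9 measured, both lower in replicate 2. With TMM neither was. St6galnac1 was listed at 0.01 TPM in each library, and St6galnac6 at 13.6 TPM in replicate 2, against 11.9 TPM in replicate 1.

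Sulfation genes were led by Papss1, which makes the sulfate donor, at 43.0 TPM in replicate 2, against 55.2 TPM in replicate 1. Gal3st1 followed at 36.4 TPM in replicate 2, against 52.1 TPM in replicate 1, and Chst4, which sulfates GlcNAc, at 31.4 TPM in replicate 2, against 15.8 TPM in replicate 1. Gal3st2, a galactose sulfotransferase, was at 11.1 TPM in replicate 2, against 23.9 TPM in replicate 1, and its counts were not whole, so reads may be shared with near copies. It was the 1 gene of the 6 measured that was 2-fold apart, and with TMM Chst4 was as well. Chst4 was higher and Gal3st2 lower in replicate 2.

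Of the other core and extension genes 18 of 22 were detected, led by the galactosyltransferases B4galt3 at 57.3 TPM in replicate 2, against 60.1 TPM in replicate 1, B4galt1 at 58.2 and 41.9 TPM and B4galt5 at 30.8 and 50.5 TPM. B3galt5, which makes type 1 chains, was 2-fold higher in replicate 2, at 4.79 TPM against 1.83 TPM in replicate 1. B4galt6, known from lactosylceramide synthesis, was 2-fold lower, at 6.69 TPM in replicate 2, against 15.6 TPM in replicate 1. So was Galnt2 among the Galnt genes, at 3.37 TPM in replicate 2, against 8.10 TPM in replicate 1. The counts of Galnt2, 759.63 in replicate 2 and 1397.95 in replicate 1, were not whole, so its reads may be shared with other genes.

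All 17 genes that supply nucleotide sugars were detected, and none was 2-fold apart. Gmds, an enzyme of GDP-fucose synthesis, was at 228 TPM in replicate 2, against 211 TPM in replicate 1, and the Golgi GDP-fucose transporter gene Slc35c1 at 143 and 145 TPM. The log2 ratio of Gmds depended on the unit, at 0.11 in TPM and 0.70 with TMM. Its expected counts were 18670 in replicate 2 and 9936 in replicate 1. In TPM Gmds stood above each of the 10 enzymes in both libraries. The median log2 ratios of the lists were -0.30 for other Galnt genes, -0.29 for sialyltransferases, -0.43 for sulfation and 0.22 for fucosylation, with -0.24, -0.06, -0.27 and 0.43 under TMM. Those of other core genes and of sugar supply were -0.10 and -0.02 in TPM and changed sign under TMM, to 0.09 and 0.18.

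**Figure D5:**
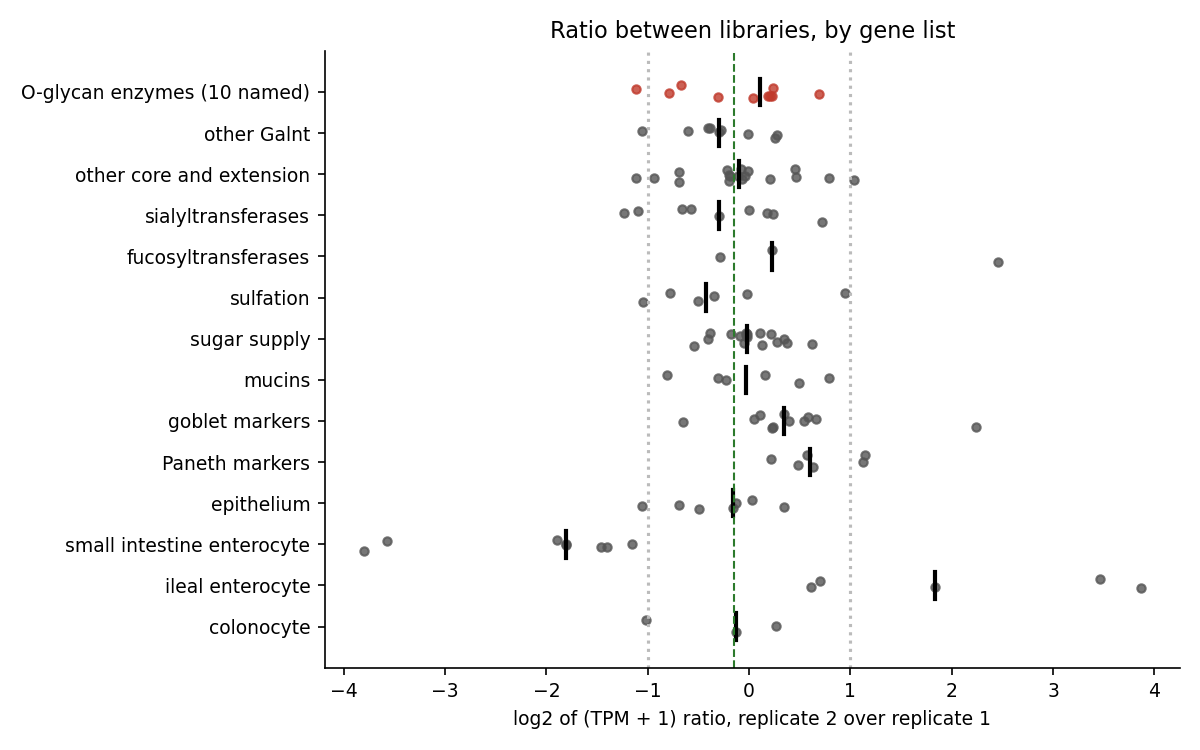
Log2 of (TPM + 1) in replicate 2 over replicate 1 for each gene whose mean TPM was 1 or more (points) and the list median (black bar), with the 10 enzymes in red at the top. The dashed line is the median of all genes, -0.145, and dotted lines mark 2-fold; the 10 enzymes run from -1.11 to 0.69, inside the spread of the pathway lists, while enterocyte lists lie furthest out.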

How the data were processed

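PolyA libraries from tissue labelled large intestine, stranded with paired reads of 76 nt per the labels, were analysed from deposited tables on mm10 with GENCODE M4, per the accompanying notes. The aligner was not given in the sources used here, nor was the quantification program. The authors deposited expected counts, TPM and FPKM per gene and transcript, and the percent of its gene's TPM for each transcript. Symbols and positions came from GENCODE M21, matched on identifiers without version for 42462 of 43346 genes. Of 156 list entries 154 were in the tables.

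For each gene whose mean TPM was 1 or more, log2 of (TPM + 1) in replicate 2 over that in replicate 1 was computed. No p-value was computed, with 1 library against 1. Intervals are exact (95%) on rounded expected counts. By chi-square, 65.4% of 17110 genes with at least 20 counts differed between the libraries beyond the 95% limit of counting error, so they are not copies. Rounded expected counts were also scaled with edgeR 4.0.16 (TMM) and DESeq2 1.42.0 (size factors) in R 4.3.3. Python 3.11.15 with pandas 2.3.3 and scipy 1.17.1 did the rest, and the ratio step was tested on simulated data.

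Named were the 10 enzymes, their transcripts at 10% or more, and of each other list its 3 highest genes and those at least 2-fold apart. Further genes were named after their values were seen: B3gnt2, B4galnt3, B4galnt4, Gcnt1, Gcnt4, Spdef, Epcam, Muc5ac, Muc6, St6galnac1, Abo, Poc1b, Car1, Xist. So were Scnn1g, Hoxa13, Hoxd13, Ern2, Fcgbp, Gm11534 and Gm28626. Of the cell type markers this rule takes, examples are given beside the sums. Some genes that the rule takes are not reported here. Members and lists were chosen with earlier results of these data known. Junctions and contigs, on mm9, were not used here.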

Additional observations from a re-analysis of the deposited data

How the results depend on the processing

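The number of enzymes at least 2-fold apart was 1 in TPM and 0 with deposited FPKM, TMM, DESeq2 size factors and shares of expected counts, and 4 at a limit of 1.5-fold, which 17.5% of all genes passed. It was 1 with other pseudocounts, posterior means, rescaled TPM and no filter. The median log2 ratio of the 10 was 0.11, reached 0.26 with FPKM and ran from 0.06 to 0.12 under the other settings. The number detected was 10 in both libraries and 6 at a minimum of 10 TPM. Leaving out each library in turn only restates the other library, with summed levels of 384 and 512 TPM. The 10 detected genes could not change, since all passed the limit in both libraries. The leading transcript was shared by 9 genes, and by 10 over protein-coding transcripts only. For Galnt3 the latter was fixed in advance, since it has 1 protein-coding transcript. Galnt3 had the opposite sign in 4 of 9 settings, those on counts and on its protein-coding transcript. No paired analysis was possible because there is 1 group. Ratios rest on 1 library each, and counting intervals included 1 for B3gnt6 and Galnt3.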
